A study of Mus musculus with 15 samples.

Results

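The genes described here encode the machinery of the lysosome other than the cathepsins: the proton pump and its subunits, the proteins of the limiting membrane, the soluble hydrolases with their activators, and regulators of lysosomal gene expression. They were taken by gene symbol from a list of 55 names. All 55 were found among the 54390 genes of the deposited tables, and all 55 were among the 14237 genes expressed highly enough to be tested. Bulk RNA-seq was performed on BV2 cells, an immortalized mouse microglial line, in 4 groups. WT non-foamy cells (4 libraries) carried the label Trem2WT and were kept overnight in media alone, and WT foamy cells (4 libraries) received 20 ug/mL soluble cholesterol overnight instead. Trem2-/- non-foamy cells (3 libraries, labelled Trem2KO) and Trem2-/- foamy cells (4 libraries) were handled in the same pair of ways. The Trem2-/- line was made by transfecting Cas9-expressing BV2 cells with a guide against Trem2, a surface receptor that senses lipids, and by growing single clones. A difference between genotypes is therefore also a difference between cells grown from single clones and the control line. The number of clones behind these libraries was not given. Whether the WT line carried Cas9 was not stated in the sources used here.

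The vacuolar ATPase (V-ATPase) is a rotary pump in which the cytosolic V1 sector hydrolyzes ATP and the membrane-embedded V0 sector moves protons into the lysosome. The resulting acidity activates hydrolases that cut glycans, sulfated sugars, lipids and proteins, while heavily glycosylated proteins such as Lamp1 and Lamp2 line the membrane. Transcription factors of the MiT/TFE family, among them Tfeb and Tfe3, bind E-box letters in the promoters of many of these genes, and macrophages depend on this system to break down engulfed lipid and cell debris.

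The libraries held 23538963 to 41683825 counts, and WT non-foamy replicate 3 was the shallowest. Its mitochondrial share, at 7.97%, was the highest of its group, and it lay apart from the other 3 libraries of its group for several genes below. Trem2 itself was at 354 ± 41.2 CPM (counts relative to the scaled size of the library) in WT non-foamy cells and 222 ± 8.79 CPM in Trem2-/- non-foamy cells (SD, n = 4 and 3), and at 373 ± 26.4 and 224 ± 4.56 CPM in the foamy groups (SD, n = 4 and 4), so the transcript was lower but still counted in the Trem2-/- libraries. Of 10 microglial and macrophage markers, Tyrobp, Csf1r and Ptprc were abundant, whereas the microglial genes Tmem119, P2ry12 and Cx3cr1 stayed at group means of no more than 1.76 CPM. Markers of neurons, astrocytes, endothelial cells and fibroblasts summed to at most 0.631 CPM in any library, and those of oligodendrocytes to at most 2.57 CPM. The labels do not say that libraries of a group came from separate cultures, so the p-values measure the spread between these libraries, which may be technical.

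A RefSeq promoter (250 bases before to 50 after a start site, GRCm38.p6) was on hand for 47 of the 55 genes. The E-box letters CACGTG, which read alike on both strands, were in a promoter of 14 of these 47 genes (29.8%), compared with 8.09% of all 27025 genes in the table and 11.8% of the 9754 tested genes in it. The longer form TCACGTGA, which contains the shorter one, was found for 7 of the 47 genes (14.9%) against 1.12% of all genes and 2.20% of the tested genes. Among the genes that were higher in Trem2-/- cells without cholesterol (below), 10 of 33 held CACGTG (30.3%), as did 4 of the 14 genes not called higher (28.6%). The longer form was held by 6 of these 33 genes (18.2%) and 1 of these 14 (7.14%), and neither split was tested. The following 4 promoters are shown because they belong to a membrane protein, a chloride exchanger, a glycosidase and a sphingolipid activator whose levels are described below, and because the last of them, from the gene with the largest rise in CPM in Trem2-/- cells without cholesterol, lacks the letters. Capitals mark CACGTG, and for Clcn7 and Psap the first of 2 listed promoters is shown. They are Lamp1 (chr8:13158911-13159210, + strand, 4 matches), Clcn7 (chr17:25133141-25133440, + strand, 2 matches), Gla (chrX:134600956-134601255, - strand, 2 matches) and Psap (chr10:60277378-60277677, + strand, no match).
Lamp1: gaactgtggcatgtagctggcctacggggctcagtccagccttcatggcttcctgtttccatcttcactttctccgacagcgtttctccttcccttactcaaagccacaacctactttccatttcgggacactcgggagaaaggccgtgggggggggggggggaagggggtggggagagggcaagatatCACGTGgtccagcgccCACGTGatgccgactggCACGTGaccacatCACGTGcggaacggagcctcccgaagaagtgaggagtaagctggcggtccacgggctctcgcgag
Clcn7: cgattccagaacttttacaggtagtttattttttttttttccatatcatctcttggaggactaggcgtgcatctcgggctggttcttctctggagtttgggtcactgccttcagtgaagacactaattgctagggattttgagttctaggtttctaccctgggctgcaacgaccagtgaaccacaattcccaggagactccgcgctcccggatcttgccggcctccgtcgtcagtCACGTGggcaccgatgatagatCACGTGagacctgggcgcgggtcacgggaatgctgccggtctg
Gla: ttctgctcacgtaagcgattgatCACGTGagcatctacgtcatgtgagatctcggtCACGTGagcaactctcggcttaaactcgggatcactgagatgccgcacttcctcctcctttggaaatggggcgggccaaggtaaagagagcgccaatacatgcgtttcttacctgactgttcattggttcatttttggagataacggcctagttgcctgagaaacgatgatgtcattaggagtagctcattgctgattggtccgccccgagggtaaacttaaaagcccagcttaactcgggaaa
Psap: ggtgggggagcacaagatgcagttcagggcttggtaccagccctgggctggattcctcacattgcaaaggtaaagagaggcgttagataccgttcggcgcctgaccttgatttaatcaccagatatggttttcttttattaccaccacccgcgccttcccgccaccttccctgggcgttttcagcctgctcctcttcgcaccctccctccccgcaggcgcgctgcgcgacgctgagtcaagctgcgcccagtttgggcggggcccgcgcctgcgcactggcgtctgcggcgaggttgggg
A match describes the letters in this window and does not show binding.

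Per kilobase of exon, the lysosomal genes were well expressed in WT non-foamy cells, with a median level of 36.8 CPM per kb over the 55 genes against 3.71 CPM per kb over all tested genes, and 46 of the 55 lay above the latter value. Cd68, a glycoprotein of macrophage lysosomes, was the highest, at a level of 985 CPM per kb. It was followed by the V1 subunit gene Atp6v1g1 at 348 CPM per kb, Psap at 336 CPM per kb and Hexa at 284 CPM per kb. The lowest levels were those of the sulfatase gene Ids at 0.823 CPM per kb, Acp5 at 1.19 CPM per kb, the sulfatase gene Sgsh at 1.53 CPM per kb and Tfeb at 1.70 CPM per kb.

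Without cholesterol, most of the lysosomal genes were higher in Trem2-/- cells than in WT cells. Of the 55 genes, 40 rose and 1, the V0 gene Atp6v0a1, fell (adjusted p under 0.05, edgeR quasi-likelihood test), compared with 21.0% of all tested genes that were called higher, 22.6% called lower and 43.6% called in either direction. The median log2 fold change was 0.40 over the 55 genes and 0.02 over all tested genes. For 41 of the 55 genes the libraries of the groups did not overlap, against 46.1% of all tested genes. The summed level of the 55 genes ran from 12237 to 13197 CPM in WT non-foamy libraries and from 18568 to 18900 CPM in Trem2-/- non-foamy libraries. When libraries were scaled by their total counts alone, the median of all tested genes shifted to -0.13, and 30 of the 55 genes were called higher and 3 lower (Atp6v0a1, Cln3 and Ppt2), with 29.4% of all calls in the higher direction in place of 48.1%. Under that scaling the calls of Atp6v0d1, Atp6v0e, Atp6v1h, Clcn7, Mcoln1, Idua, Naglu, Galns, Smpd1 and Ppt1 were lost. The summed level of the 10 microglial and macrophage markers also differed by genotype, at 2058 to 2525 CPM in WT non-foamy and 2976 to 3185 CPM in Trem2-/- non-foamy libraries. Of the 10 markers, 5 were called higher and 2 lower. Tyrobp held the largest share of the sum, with means of 1235 and 1740 CPM. Means of the microglial genes Cx3cr1 (1.54 and 0.300 CPM) and P2ry12 (1.74 and 0.598 CPM) were lower in Trem2-/- cells. The part of these markers in the result was not tested. A change in the share of cells in some state and a change in RNA per cell cannot be told apart in such bulk samples.

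**Figure D1:**
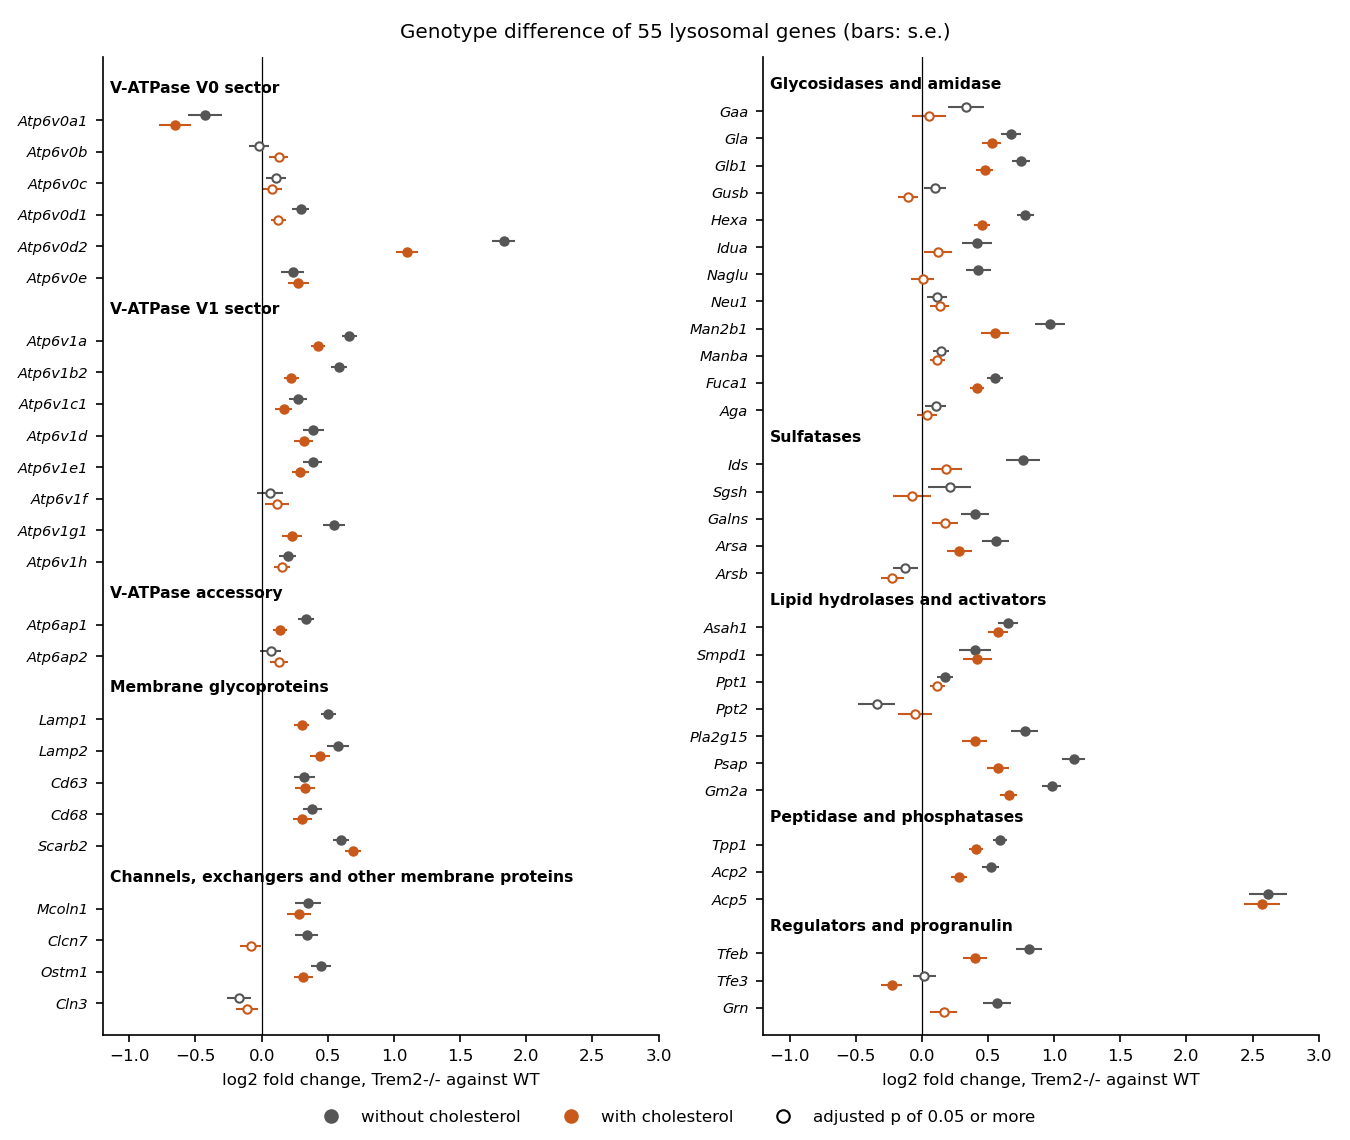
Genotype differences of the 55 genes, grouped by class. The horizontal axis gives log2 fold changes (Trem2-/- over WT), grey points are cells without cholesterol, orange points cells with 20 ug/mL cholesterol, bars are standard errors, and open points had an adjusted p of 0.05 or more. Most filled points lie to the right of 0, Acp5 and Atp6v0d2 lie farthest right, and Atp6v0a1 lies to the left of 0 in both comparisons.

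Among the 6 genes of the V0 sector, 3 rose and 1 fell in Trem2-/- cells without cholesterol (66.7% called, and 50% with it). Counts per class, here and below, stand against 21.0% of all tested genes called higher and 22.6% lower without cholesterol. With cholesterol these shares were 14.3% and 15.9%. In either direction, 43.6% of all tested genes were called without cholesterol and 30.2% with it. Atp6v0d2, the d2 subunit known from osteoclasts and macrophages, was at 160, 160, 194 and 157 CPM in the WT non-foamy libraries, 208, 253, 264 and 227 CPM in WT foamy, 600, 620 and 569 CPM in Trem2-/- non-foamy and 504, 490, 468 and 582 CPM in Trem2-/- foamy libraries. Every Trem2-/- library was above every WT library, and every WT foamy library was above every WT non-foamy library. The gene was 3.55-fold higher in Trem2-/- cells without cholesterol (1.83 ± 0.09 on the log2 scale, with standard errors here and below, adjusted p = 6.56e-13) and 2.15-fold higher with it (1.10 ± 0.08, adjusted p = 1.64e-09). Atp6v0a1, the a1 subunit that anchors the stator, was at 40.7, 41.5, 33.7 and 41.0 CPM in WT non-foamy, 50.5, 37.3, 39.7 and 43.0 CPM in WT foamy, 25.9, 30.8 and 31.1 CPM in Trem2-/- non-foamy and 25.4, 32.2, 30.7 and 20.0 CPM in Trem2-/- foamy libraries. Here every Trem2-/- library was below every WT library. The log2 fold change was -0.43 ± 0.13 without cholesterol (adjusted p = 0.01) and -0.65 ± 0.12 with it (adjusted p = 0.000212), and the first call was lost without Trem2-/- non-foamy replicate 1 (adjusted p = 0.0729).

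The other V0 genes differed less. Atp6v0b, the V0 gene with the highest level per kilobase, was at 269, 271, 335 and 272 CPM in WT non-foamy, 245, 280, 277 and 290 CPM in WT foamy, 286, 268 and 294 CPM in Trem2-/- non-foamy and 313, 294, 308 and 279 CPM in Trem2-/- foamy libraries. These groups overlapped, and WT non-foamy replicate 3 held the highest value of all. The gene was called in no comparison, and 11.8% of its exonic bases are shared with a gene on the other strand. Atp6v0d1, the widely expressed d subunit, rose without cholesterol (0.30 ± 0.06, adjusted p = 0.000561). Atp6v0e, a small membrane subunit, was called higher in both comparisons (0.23 ± 0.09, adjusted p = 0.0341, and 0.28 ± 0.08, adjusted p = 0.0118), although the first call was lost when any one of 6 libraries was left out. The proton-carrying ring subunit gene Atp6v0c was not called.

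In the V1 sector, 7 of 8 genes rose in Trem2-/- cells without cholesterol and 6 of 8 with it, with median log2 fold changes of 0.39 and 0.23. The shares called were 87.5% and 75%, against 43.6% and 30.2% of all tested genes. Atp6v1a, the catalytic subunit, had the largest difference of the sector without cholesterol (0.66 ± 0.06, adjusted p = 5.47e-09). Atp6v1b2, its partner in the ATP-binding ring, was at 476, 507, 462 and 483 CPM in WT non-foamy, 570, 623, 558 and 537 CPM in WT foamy, 711, 736 and 724 CPM in Trem2-/- non-foamy and 672, 676, 657 and 670 CPM in Trem2-/- foamy libraries. None of the 4 groups overlapped another, and the order from low to high was WT non-foamy, WT foamy, Trem2-/- foamy and Trem2-/- non-foamy. Its log2 fold change between genotypes was 0.59 ± 0.06 without cholesterol (adjusted p = 6.15e-08) and 0.23 ± 0.06 with it (adjusted p = 0.00419). Atp6v1g1, a subunit of the peripheral stalk, was at 384, 376, 457 and 365 CPM in WT non-foamy, 381, 445, 477 and 448 CPM in WT foamy, 583, 582 and 566 CPM in Trem2-/- non-foamy and 517, 483, 496 and 553 CPM in Trem2-/- foamy libraries. All Trem2-/- libraries were above all WT libraries, and 19.2% of the 50-base stretches of this transcript also occur in other genes, pseudogenes among them. It rose by 0.55 ± 0.08 (adjusted p = 7.71e-06) and 0.23 ± 0.07 (adjusted p = 0.0245), and the second call was lost without WT foamy replicate 1, Trem2-/- foamy replicate 1 or Trem2-/- foamy replicate 4. Atp6v1d and Atp6v1e1 rose in both comparisons, by 0.29 to 0.39. Atp6v1c1 rose by 0.27 ± 0.07 without cholesterol (adjusted p = 0.00244), and its call with cholesterol (0.17 ± 0.06, adjusted p = 0.0493) was lost in 12 of 15 alternatives. Atp6v1h rose without cholesterol (0.20 ± 0.06, adjusted p = 0.0161), a call that was lost without Trem2-/- non-foamy replicate 1 and when libraries were scaled by total counts alone. Atp6v1f was called in neither comparison.

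Of the pair of accessory genes, Atp6ap1, which helps assemble the pump, was at 209, 222, 199 and 212 CPM in WT non-foamy, 240, 230, 221 and 230 CPM in WT foamy, 263, 265 and 269 CPM in Trem2-/- non-foamy and 251, 264, 250 and 249 CPM in Trem2-/- foamy libraries. The Trem2-/- libraries were all above the WT libraries. The log2 fold change was 0.34 ± 0.06 without cholesterol (adjusted p = 4.85e-05) and 0.14 ± 0.05 with it (adjusted p = 0.049), and the second call was lost without any one of 7 libraries. Atp6ap2, the prorenin receptor, was called in neither comparison. Summed over the 16 V-ATPase genes, the level was 3806 to 4256 CPM in WT non-foamy, 4001 to 4419 CPM in WT foamy, 5449 to 5584 CPM in Trem2-/- non-foamy and 5044 to 5478 CPM in Trem2-/- foamy libraries. The Trem2-/- means were 1.39-fold the WT means without cholesterol and 1.22-fold with it.

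The 5 membrane glycoproteins rose without exception in both genotype comparisons, with median log2 fold changes of 0.50 and 0.33. Cd68 was at 1136, 1255, 1401 and 1158 CPM in WT non-foamy, 1221, 1362, 1409 and 1339.7 CPM in WT foamy, 1601, 1591 and 1652 CPM in Trem2-/- non-foamy and 1711, 1691, 1578 and 1626 CPM in Trem2-/- foamy libraries. Genotypes did not overlap, whereas the foamy and non-foamy libraries of each genotype did. Between genotypes Cd68 rose by 0.38 ± 0.07 (adjusted p = 0.000181) and 0.31 ± 0.07 (adjusted p = 0.00144). Scarb2, the receptor that carries glucocerebrosidase to the lysosome, was at 116, 126, 119 and 117 CPM in WT non-foamy, 129, 135, 123 and 120 CPM in WT foamy, 176, 179 and 187 CPM in Trem2-/- non-foamy and 204, 195, 195 and 222 CPM in Trem2-/- foamy libraries. The Trem2-/- foamy libraries were the highest, all above the Trem2-/- non-foamy libraries. The genotype difference was 0.60 ± 0.06 without cholesterol (adjusted p = 7.63e-08) and 0.69 ± 0.06 with it (adjusted p = 1.05e-08). Lamp2, required for fusion with autophagosomes, rose by 0.58 ± 0.08 and 0.44 ± 0.08 (adjusted p = 3.81e-06 and 0.00011). Lamp1 rose by 0.50 ± 0.06 and 0.30 ± 0.05 (adjusted p = 3.19e-07 and 0.000204), and 9.31% of its exonic bases are shared with a gene on the other strand. The tetraspanin gene Cd63 rose by 0.32 ± 0.08 and 0.33 ± 0.08 (adjusted p = 0.00244 and 0.00184), with 11.1% of its 50-base stretches also found elsewhere, in a Cd63 pseudogene above all.

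Of the 4 channels, exchangers and other membrane proteins, 3 rose without cholesterol and 2 with it. The shares called were 75% and 50%, against 43.6% and 30.2% of all tested genes. Clcn7, the chloride-proton exchanger of lysosomes and the member of this class with the highest level per kilobase, was at 39.1, 42.8, 35 and 42.2 CPM in WT non-foamy, 56.8, 49.3, 46.5 and 43.8 CPM in WT foamy, 49.7, 49.3 and 52.4 CPM in Trem2-/- non-foamy and 46.8, 42.8, 49.9 and 46.0 CPM in Trem2-/- foamy libraries. WT non-foamy libraries lay below the WT foamy and the Trem2-/- non-foamy libraries, while the foamy groups of both genotypes overlapped. It rose in Trem2-/- cells without cholesterol (0.34 ± 0.09, adjusted p = 0.00239) and was not called with it. Ostm1, the partner that Clcn7 needs for stability, rose in both comparisons (0.45 ± 0.08, adjusted p = 4.15e-05, and 0.32 ± 0.07, adjusted p = 0.00148). Mcoln1, the calcium release channel TRPML1, also rose in both (0.35 ± 0.10, adjusted p = 0.00676, and 0.28 ± 0.09, adjusted p = 0.0231), and its second call was lost without WT foamy replicate 3, Trem2-/- foamy replicate 1 or Trem2-/- foamy replicate 3. Cln3, a membrane protein that is defective in a childhood storage disease of neurons, had a log2 fold change of -0.17 ± 0.09 without cholesterol (adjusted p = 0.125).

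Of the 12 genes for glycosidases and an amidase, 7 rose without cholesterol and 5 with it, and none fell. The shares called were 58.3% and 41.7%, against 43.6% and 30.2% of all tested genes (21.0% and 14.3% higher). Hexa, the alpha subunit of the enzyme that degrades GM2 ganglioside, was at 555, 598, 555 and 559 CPM in WT non-foamy, 703, 709, 633 and 619 CPM in WT foamy, 976, 941 and 1005 CPM in Trem2-/- non-foamy and 915, 966, 882 and 895 CPM in Trem2-/- foamy libraries. Every Trem2-/- library was above every WT library, and WT foamy libraries were all above WT non-foamy libraries. The log2 fold changes between genotypes were 0.78 ± 0.06 (adjusted p = 2.13e-09) and 0.46 ± 0.06 (adjusted p = 5.13e-06), and 12.8% of the exonic bases of Hexa are shared with Tmem202 on the other strand. Man2b1, the acid alpha-mannosidase, had the largest difference of the class. It was at 80.4, 99.2, 67.1 and 87.1 CPM in WT non-foamy, 120, 109, 86.4 and 97.2 CPM in WT foamy, 164, 154 and 173 CPM in Trem2-/- non-foamy and 157, 171, 151 and 126 CPM in Trem2-/- foamy libraries. The genotypes did not overlap, while WT foamy and WT non-foamy libraries did. Man2b1 rose by 0.97 ± 0.11 (adjusted p = 3.49e-07) and 0.55 ± 0.11 (adjusted p = 0.000364). Glb1, the acid beta-galactosidase, Gla, the alpha-galactosidase, and Fuca1, which removes fucose, rose in both comparisons, by 0.55 to 0.75 without cholesterol and by 0.42 to 0.53 with it. Idua and Naglu, which degrade glycosaminoglycans, were called without cholesterol (0.42 ± 0.11, adjusted p = 0.00474, and 0.43 ± 0.09, adjusted p = 0.000604) and not with it, but the difference of these differences was itself not called (adjusted p = 0.337 and 0.062). Gaa, Gusb, Neu1, Manba and Aga were called in neither comparison. The first of these, acid alpha-glucosidase, had a log2 fold change of 0.33 ± 0.14 without cholesterol (adjusted p = 0.0514).

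Of the 5 sulfatases, 3 rose without cholesterol and 1 with it, with median log2 fold changes of 0.40 and 0.17. The share called was 60% without cholesterol, against 43.6% of all tested genes. With cholesterol it was 20%, below the 30.2% of all tested genes. Their summed level, of which Arsb made up the largest share (a mean of 186 of 271 CPM in WT non-foamy cells), overlapped among all 4 groups, at 229 to 296 CPM in WT non-foamy and 282 to 296 CPM in Trem2-/- non-foamy libraries. Ids, which removes sulfate from heparan and dermatan sulfate, was at 3.73, 4.32, 4.58 and 4.17 CPM in WT non-foamy, 6.01, 5.53, 6.42 and 5.41 CPM in WT foamy, 7.12, 6.50 and 7.68 CPM in Trem2-/- non-foamy and 6.34, 6.58, 5.98 and 7.72 CPM in Trem2-/- foamy libraries. WT non-foamy libraries were below all others. Ids rose in Trem2-/- cells without cholesterol (0.76 ± 0.13, adjusted p = 5.05e-05), and its difference with cholesterol was 0.19 ± 0.12 (adjusted p = 0.257). Arsb, arylsulfatase B and the sulfatase gene with the highest level per kilobase, was at 188, 202, 155 and 200 CPM in WT non-foamy, 217, 209, 172 and 182 CPM in WT foamy, 166, 172 and 175 CPM in Trem2-/- non-foamy and 172, 188, 161 and 148 CPM in Trem2-/- foamy libraries. These groups overlapped, and the log2 fold changes were -0.12 ± 0.09 (adjusted p = 0.296) and -0.22 ± 0.09 (adjusted p = 0.055). Genes on the other strand share 39.9% of its exonic bases. Arsa, which degrades sulfatide, rose in both comparisons (0.56 ± 0.10, adjusted p = 0.000108, and 0.28 ± 0.09, adjusted p = 0.0268), although 18.8% of its exonic bases are shared in the same way and the second call was lost without any one of 4 libraries. Galns rose without cholesterol (0.40 ± 0.11, adjusted p = 0.00362), and Sgsh was called in neither comparison.

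The lipid hydrolases and their activators had the largest fold rise of a summed class level between genotypes: 1826 to 1967 CPM in WT non-foamy, 2123 to 2421 CPM in WT foamy, 3578 to 3797 CPM in Trem2-/- non-foamy and 3297 to 3492 CPM in Trem2-/- foamy libraries. The Trem2-/- mean was 1.95-fold the WT mean without cholesterol and 1.48-fold with it, and Psap held the highest level per kilobase of the class. The activators Psap and Gm2a made up most of the rise of the sum. Without cholesterol the mean sum went from 1895 to 3699 CPM, Psap from 923 to 2043 CPM and Gm2a from 438 to 864 CPM. Of the 7 genes, 6 rose without cholesterol and 5 with it. The shares called were 85.7% and 71.4%, against 43.6% and 30.2% of all tested genes. Psap, the precursor of the saposins that present sphingolipids to their hydrolases, was at 881, 1015, 825 and 969 CPM in WT non-foamy, 1336, 1308, 1097 and 1065 CPM in WT foamy, 2078, 1904 and 2148 CPM in Trem2-/- non-foamy and 1827, 1939, 1768 and 1622 CPM in Trem2-/- foamy libraries. The genotypes did not overlap, and neither did WT foamy and WT non-foamy libraries, with WT foamy replicates 1 and 2 above the other two of their group. Between genotypes Psap rose by 1.15 ± 0.09 (adjusted p = 8e-10) and 0.57 ± 0.08 (adjusted p = 1.64e-05). Gm2a, the GM2 activator that works with Hexa, was at 418, 433, 490 and 410 CPM in WT non-foamy, 472, 542, 521 and 494 CPM in WT foamy, 839, 871 and 881 CPM in Trem2-/- non-foamy and 780, 785, 788 and 847 CPM in Trem2-/- foamy libraries. All Trem2-/- libraries were above all WT libraries, and the log2 fold changes were 0.98 ± 0.07 (adjusted p = 1.78e-10) and 0.66 ± 0.06 (adjusted p = 8.13e-08). Asah1, acid ceramidase, was at 363, 354, 425 and 349 CPM in WT non-foamy, 347, 389, 431 and 398 CPM in WT foamy, 599, 592 and 564 CPM in Trem2-/- non-foamy and 588, 557, 552 and 637 CPM in Trem2-/- foamy libraries. Its genotypes were again apart, with log2 fold changes of 0.65 ± 0.08 (adjusted p = 4.96e-07) and 0.58 ± 0.07 (adjusted p = 2.93e-06). Pla2g15, a lysosomal phospholipase, rose by 0.78 ± 0.10 and 0.40 ± 0.10 (adjusted p = 1.8e-06 and 0.00269). Smpd1, acid sphingomyelinase, rose by 0.40 ± 0.12 and 0.42 ± 0.11 (adjusted p = 0.00893 and 0.00576), and the first call was lost without Trem2-/- non-foamy replicate 3. Ppt1, a thioesterase that removes palmitate from proteins, rose without cholesterol (0.18 ± 0.06, adjusted p = 0.0198), a call that was lost without Trem2-/- non-foamy replicate 1 or 2. Its relative Ppt2 had a log2 fold change of -0.34 ± 0.14 without cholesterol (adjusted p = 0.0559), and 36.6% of its exonic bases are shared with a gene on the same strand.

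The peptidase and both phosphatases rose in both genotype comparisons. Acp5, tartrate-resistant acid phosphatase, a marker of osteoclasts and of some tissue macrophages, was at 2.44, 2.48, 3.08 and 1.67 CPM in WT non-foamy, 2.39, 2.13, 2.75 and 2.40 CPM in WT foamy, 14, 15 and 14.5 CPM in Trem2-/- non-foamy and 14.9, 15.1, 14.6 and 12.8 CPM in Trem2-/- foamy libraries. Every Trem2-/- library was far above every WT library, and foamy and non-foamy libraries of a genotype overlapped. With 6.13-fold (log2 fold change 2.62 ± 0.14, adjusted p = 3.47e-12) without cholesterol and 5.95-fold (2.57 ± 0.14, adjusted p = 4.76e-12) with it, this was the largest genotype difference of the 55 genes in both comparisons, in a gene of low level. Tpp1, a tripeptidyl peptidase, was at 243, 253, 264 and 250 CPM in WT non-foamy, 274, 269, 280 and 277 CPM in WT foamy, 378, 376 and 388 CPM in Trem2-/- non-foamy and 371, 357, 359 and 374 CPM in Trem2-/- foamy libraries. None of its 4 groups overlapped, and the genotype difference was 0.59 ± 0.05 without cholesterol (adjusted p = 1.05e-08) and 0.41 ± 0.05 with it (adjusted p = 2.46e-06). Acp2, a widely expressed acid phosphatase, rose by 0.52 ± 0.06 and 0.28 ± 0.06 (adjusted p = 6.39e-07 and 0.000903), and 12.6% of its exonic bases are shared with a gene on the other strand.

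Of the regulators, Tfeb was at 10.2, 8.76, 8.89 and 10.6 CPM in WT non-foamy, 12, 12.9, 12 and 11 CPM in WT foamy, 17.2, 15.2 and 18.4 CPM in Trem2-/- non-foamy and 16.2, 16.3, 15.2 and 15.6 CPM in Trem2-/- foamy libraries. Trem2-/- libraries were all above WT libraries, and WT foamy above WT non-foamy libraries. Tfeb rose in Trem2-/- cells by 0.81 ± 0.10 (adjusted p = 5.73e-07) and 0.40 ± 0.09 (adjusted p = 0.0018). Its relative Tfe3 was not called without cholesterol (adjusted p = 0.872) and fell with it (-0.23 ± 0.08, adjusted p = 0.0351), from 33.9 ± 3.56 CPM in WT foamy to 29.0 ± 2.17 CPM in Trem2-/- foamy cells (SD, n = 4 and 4), with overlapping libraries and with the call lost without any one of 4 libraries. Grn encodes progranulin, a secreted protein that lysosomes cut into granulins. It was at 375, 451, 329 and 447 CPM in WT non-foamy, 552, 506, 432 and 470 CPM in WT foamy, 580, 555 and 649 CPM in Trem2-/- non-foamy and 577, 619, 547 and 456 CPM in Trem2-/- foamy libraries. Trem2-/- non-foamy libraries were above WT non-foamy libraries, whereas the foamy groups overlapped. Grn rose without cholesterol (0.57 ± 0.11, adjusted p = 0.000149), and its log2 fold change with cholesterol was 0.16 ± 0.10 (adjusted p = 0.23).

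**Figure D2:**
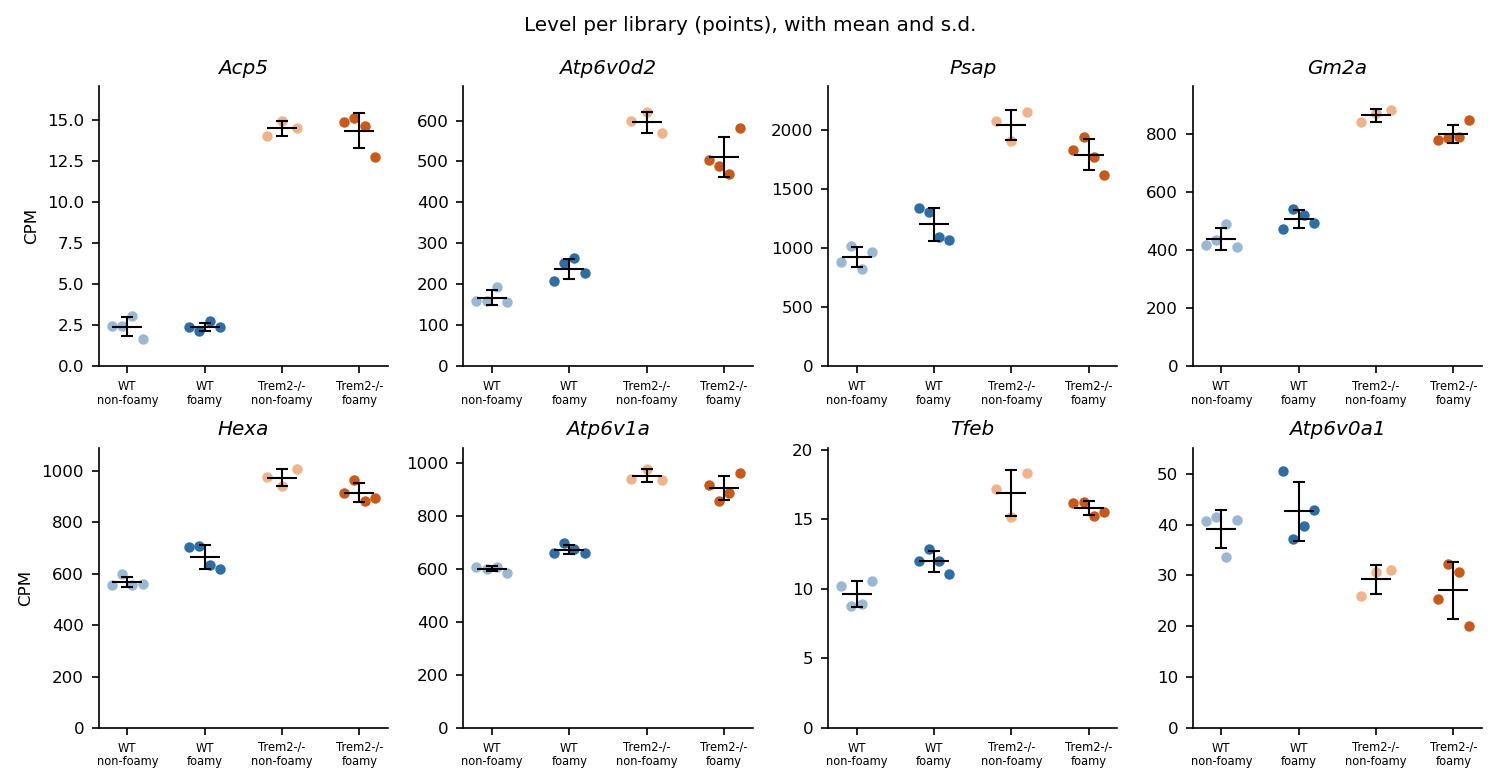
Levels of 8 genes in every library. Each panel gives the CPM (vertical axis, starting at 0) of 1 gene, points are libraries, and black bars are the mean and SD of each of the 4 groups. For 7 of the genes all Trem2-/- points lie above all WT points, and for Atp6v0a1 all lie below.

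With cholesterol, fewer genes were called between genotypes. Of the 55 genes, 31 rose in Trem2-/- cells and 2 fell (Atp6v0a1 and Tfe3), against 14.3%, 15.9% and 30.2% of all tested genes called higher, lower and in either direction. Libraries of the groups did not overlap for 31 genes (28.8% of all tested genes). The median log2 fold change was 0.23 over the 55 genes and 0.00 over all tested genes. The comparisons without and with cholesterol share no library, but they contrast the same lines and were fitted together. The 31 genes that rose with cholesterol were all among the 40 that rose without it (31 of 31 and 31 of 40). The same overlap was not counted over all tested genes. For 27 of these 31 the log2 fold change was larger without cholesterol. Genotype differences were also smaller with cholesterol across the whole table, so the drop was not confined to these genes. Ignoring sign, the median genotype difference of all tested genes was 0.32 on the log2 scale without cholesterol and 0.22 with it. For the 55 genes the same medians were 0.40 and 0.28. The 9 genes called higher only without cholesterol were Atp6v0d1, Atp6v1h, Clcn7, Idua, Naglu, Ids, Galns, Ppt1 and Grn. Among these, a change of the genotype difference with cholesterol was called for Clcn7 alone (interaction test, below), a call lost in 12 of 21 alternatives. The summed level of the 55 genes was 13740.4 to 14571 CPM in WT foamy and 17462 to 18342 CPM in Trem2-/- foamy libraries, and the ratio of means was 1.28, compared with 1.48 without cholesterol. The macrophage markers, Tyrobp above all, summed to 2248 to 2524 CPM in WT foamy and 3090 to 3179 CPM in Trem2-/- foamy libraries. Scaling by total counts alone moved the median of all tested genes to -0.13 and gave 20 genes higher and 3 lower (Atp6v0a1, Tfe3 and Arsb), with 23.3% of all calls in the higher direction in place of 47.4%. The calls then lost were those of Atp6v1b2, Atp6v1c1, Atp6v1g1, Atp6ap1, Mcoln1, Ostm1, Arsa, Smpd1, Pla2g15, Acp2 and Tfeb.

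**Figure D3:**
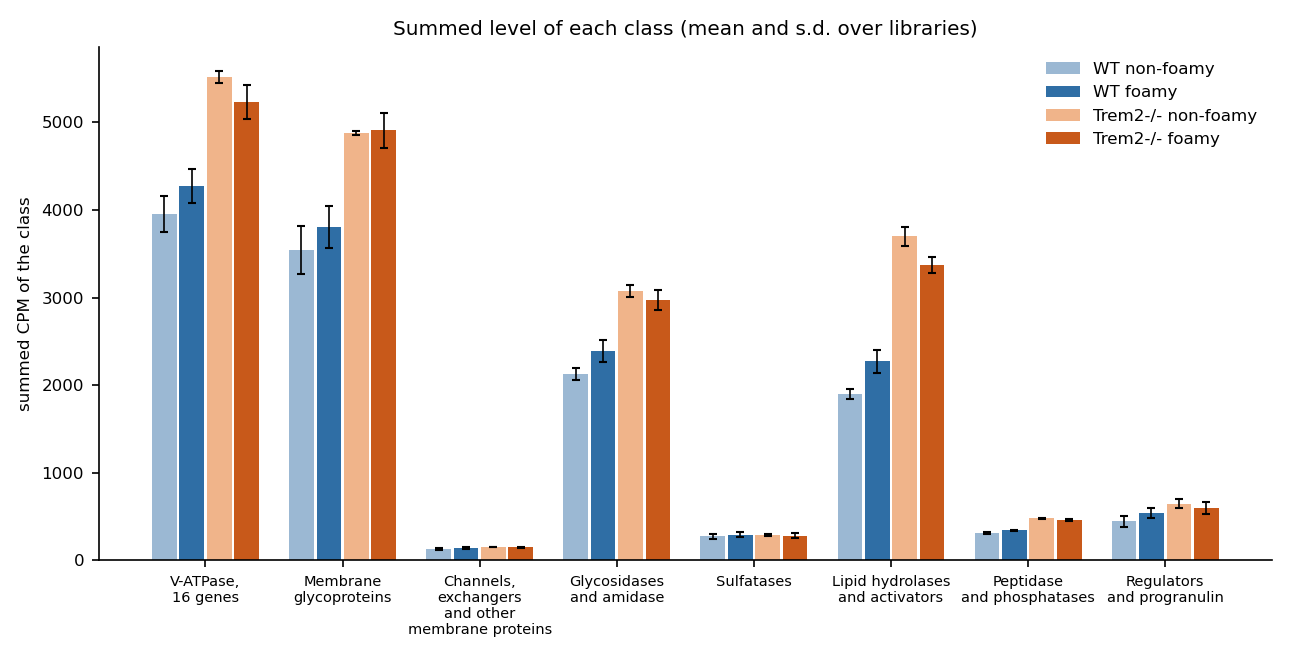
Summed level of each class in the 4 groups. Bars, from 0, are the mean summed CPM over the libraries of a group and the lines are SDs. The largest fold rise by genotype is that of the lipid hydrolases and activators, where the Trem2-/- mean is 1.95-fold the WT mean without cholesterol. Most of that rise comes from the activators Psap and Gm2a. The sum of the sulfatases, mostly Arsb, differs least.

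The response to cholesterol itself was small. In WT cells 6 genes rose and none fell (2.80% of all tested genes were called, 1.66% higher and 1.14% lower), 48 of the 55 log2 fold changes were above 0 (51.2% of all tested genes) and the median was 0.12. The groups did not overlap for 13 genes, all higher in foamy cells, against 9.71% of all tested genes in either direction. Atp6v0d2 rose from 168 ± 17.6 to 238 ± 25.0 CPM (SD, n = 4 and 4), a log2 fold change of 0.51 ± 0.08 (adjusted p = 0.00123). Ids rose by 0.48 ± 0.12 (adjusted p = 0.0347), Psap by 0.38 ± 0.08 (adjusted p = 0.0135) and Clcn7 by 0.30 ± 0.08 (adjusted p = 0.0401). Atp6v1b2 rose by 0.25 ± 0.06 (adjusted p = 0.0192) and Hexa by 0.23 ± 0.06 (adjusted p = 0.0385). Tfeb (0.31 ± 0.09, adjusted p = 0.0696), Naglu (0.29 ± 0.09, adjusted p = 0.0682) and Gm2a (0.21 ± 0.06, adjusted p = 0.0742) did not pass the threshold. Of the 6 calls, that of Atp6v0d2 was kept in all 15 alternatives at this threshold. In the reported fit it was also kept at an adjusted p under 0.01. By contrast, 1 gene was called without WT non-foamy replicate 1 or WT foamy replicate 2. There were 2 without WT non-foamy replicate 4 and 3 without WT foamy replicate 1.

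In Trem2-/- cells none of the 55 genes was called after cholesterol by edgeR or by DESeq2, and 5 had an unadjusted p under 0.05 (6.45% of all tested genes did), while 0.140% of all tested genes were called. Of the log2 fold changes 41 were below 0, compared with 48.6% of all tested genes, and the median was -0.05. The libraries did not overlap for 6 genes (9.26% of all tested genes), of which 5 were lower and Scarb2 was higher in foamy cells (0.17 ± 0.06, adjusted p = 0.658). The log2 fold changes of the genes called in WT cells were -0.22 ± 0.09 for Atp6v0d2 (adjusted p = 0.704), -0.19 ± 0.09 for Psap (adjusted p = 0.772), -0.12 ± 0.09 for Clcn7 (adjusted p = 0.867), -0.11 ± 0.06 for Atp6v1b2 (adjusted p = 0.803), -0.10 ± 0.13 for Ids (adjusted p = 0.95) and -0.09 ± 0.07 for Hexa (adjusted p = 0.867). The lowest value of all 55 was that of Idua (-0.25 ± 0.11, adjusted p = 0.772).

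Whether the response differed between genotypes was tested as an interaction (Trem2-/- response minus WT response). The difference was below 0 for 45 of the 55 genes, compared with 50.4% of all tested genes. A log2 fold change above 0 in WT and below 0 in Trem2-/- cells was seen for 37 genes. With 48 genes above 0 in WT and 41 below 0 in Trem2-/- cells, many had to be in both sets. The same count was not made over all tested genes. It was called for 5 genes, all with a lower response in Trem2-/- cells, against 3.64% of all tested genes (1.99% higher and 1.64% lower). These were Atp6v0d2 (-0.73 ± 0.12, adjusted p = 0.00122), Psap (-0.57 ± 0.12, adjusted p = 0.0107), Clcn7 (-0.42 ± 0.12, adjusted p = 0.0439), Atp6v1b2 (-0.36 ± 0.08, adjusted p = 0.0188) and Hexa (-0.32 ± 0.09, adjusted p = 0.0438). Each of the 5 was also called in the WT response, which uses the same WT libraries. Ids (-0.58 ± 0.18, adjusted p = 0.0707), Gm2a (-0.32 ± 0.09, adjusted p = 0.0558), Naglu (-0.42 ± 0.13, adjusted p = 0.062) and Tfeb (-0.41 ± 0.13, adjusted p = 0.0913) were not called. The WT non-foamy libraries enter the WT response, the genotype comparison without cholesterol and the interaction, so these 3 results are not independent of one another. With the threshold kept at 0.05, the calls for Clcn7 and Hexa were each lost in 12 of 21 alternatives, the call for Atp6v1b2 was lost without WT foamy replicate 2 or Trem2-/- non-foamy replicate 2, and those for Atp6v0d2 and Psap were kept in all 21. At an adjusted p under 0.01, Atp6v0d2 alone was called.

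**Figure D4:**
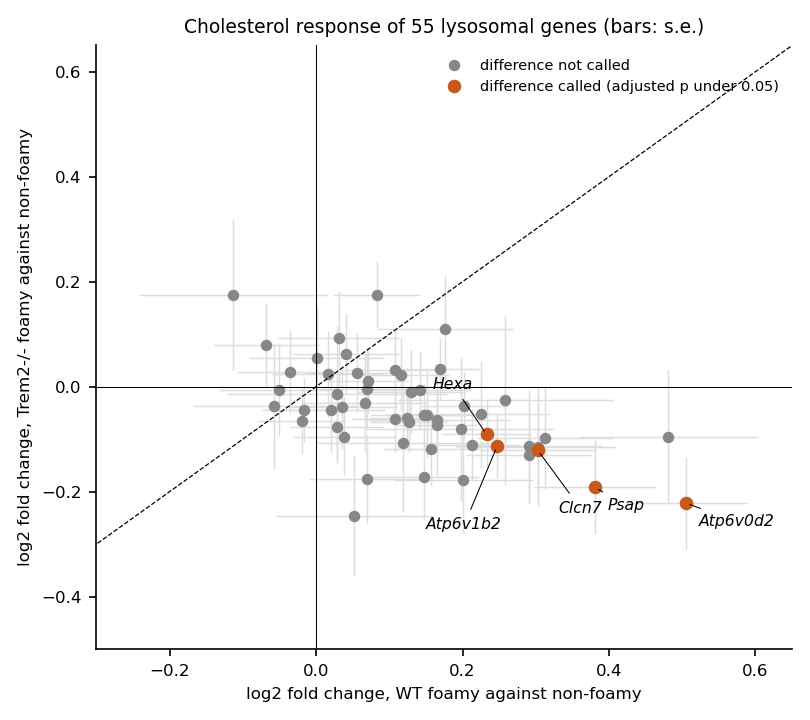
Cholesterol responses of the 55 genes. The horizontal axis is the log2 fold change of foamy against non-foamy WT cells and the vertical axis the same in Trem2-/- cells, bars are standard errors, the dashed line marks equal responses, and orange points are the 5 genes whose responses differed. Of the 55 points, 37 lie to the right of 0 and below 0, and Atp6v0d2 is farthest to the right, at 0.51 and -0.22.

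Genes related to these by function (lysosomal, sorting, MiT/TFE control and osteoclast genes) were taken from 6 lists of 85 genes, of which 75 were tested. Of the 75, 42 rose and 10 fell in Trem2-/- cells without cholesterol, and 32 rose and 2 fell with it. The shares called in either direction were 69.3% and 45.3%, against 43.6% and 30.2% of all tested genes. Over all tested genes, 21.0% rose and 22.6% fell without cholesterol, and 14.3% rose and 15.9% fell with it. Further hydrolases and cofactors rose in 12 of 15 cases without cholesterol (80%) and 10 of 15 with it (66.7%), and none fell. Npc2, which hands cholesterol from the lysosomal lumen to the membrane, rose from 1211 to 2242 CPM (log2 fold change 0.89 ± 0.08, adjusted p = 4.8e-09) without cholesterol. One gene of this list, Rnaset2a, was called at group means of no more than 0.337 CPM, too low for its fold change to be read. Other lysosomal membrane proteins rose in 12 and fell in 3 of 21 cases without cholesterol (71.4% called), and rose in 9 with it (42.9%). Those that rose without cholesterol included the sialic acid exporter gene Slc17a5 (0.98 ± 0.07, adjusted p = 1.71e-10) and the cholesterol exporter gene Npc1 (0.80 ± 0.11, adjusted p = 5.76e-06). Of 11 further V-ATPase subunits and assembly factors, 5 rose and 3 fell without cholesterol (72.7% called, against 43.6% of all tested genes). With cholesterol, 2 rose and 1 fell (27.3%, against 30.2%). Dmxl2, part of a complex that assembles the pump, rose (1.09 ± 0.08, adjusted p = 4.42e-10), as did the a3 subunit gene Tcirg1 (0.52 ± 0.08, adjusted p = 1.28e-05), whereas the a2 subunit gene Atp6v0a2 fell (-0.28 ± 0.11, adjusted p = 0.041).

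Genes that sort hydrolases to lysosomes rose in 4 and fell in 1 of 9 cases without cholesterol and rose in 3 with it. The shares called, 55.6% and 33.3%, were near those over all tested genes (43.6% and 30.2%). Igf2r, the larger of the mannose 6-phosphate receptors, had the largest rise (1.23 ± 0.16, adjusted p = 1.52e-06). Of 11 MiT/TFE factors and genes that control them, 7 rose and 2 fell without cholesterol (81.8% called), and 7 rose with it (63.6%). Mitf, a factor of the same family as Tfeb, rose by 0.65 ± 0.09 (adjusted p = 4.12e-06), and Fnip2, a folliculin partner in the nutrient-sensing pathway that retains these factors in the cytosol, rose by 1.02 ± 0.09 (adjusted p = 2.81e-09). Because Acp5 and Atp6v0d2 are known from osteoclasts, 10 osteoclast genes were also read, of which 8 were tested. Without cholesterol 2 rose and 1 fell, and with it 1 rose and 1 fell, shares of 37.5% and 25% that lay below those over all tested genes (43.6% and 30.2%). Ctsk, an osteoclast protease, rose from 2843 to 6220.5 CPM (1.13 ± 0.07, adjusted p = 7.04e-11), whereas the fusion gene Dcstamp fell from 4.69 to 1.88 CPM (-1.33 ± 0.19, adjusted p = 4.14e-06).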

How the data were processed

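RNA from 15 BV2 samples was isolated with TRIzol and RNeasy columns and sequenced on a NovaSeq. The deposited values are whole-number read counts per gene, which the authors made with the CHURP pipeline (Trimmomatic, HISAT2 and featureCounts) on GRCm38, named mm10 in the submitters' processing notes. The strand setting of the counting was not given in the sources used here, so reads of overlapping genes cannot be told apart. Libraries held 23538963 to 41683825 counts, and 99.97% of them fell in tested genes.

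Genes were kept with the edgeR filter (minimum count 10, 14237 of 54390 genes), libraries were scaled by TMM, and 1 mean per group was fitted over all 15 libraries with the quasi-likelihood test of edgeR 4.0.16 (R 4.3.3, limma 3.58.1), where the study used DESeq2. Benjamini-Hochberg adjustment ran over all tested genes, and a gene was called at an adjusted p under 0.05. Standard errors of log2 fold changes were back-calculated as the absolute log2 fold change over the square root of the F statistic of this test. The 5 comparisons were cholesterol in each genotype, genotype in each condition, and the difference between the cholesterol responses. The fit was tested on simulated data. Alternatives were DESeq2 1.42.0, other scalings and filters, a threshold of 0.01, the replicate number as a block, only the groups compared, and leaving out each library. The labels do not say whether the replicate numbers pair libraries, and the reported fit did not pair them. The members and lists were chosen with earlier results of these data known. Values in every library were printed for up to 6 called members per comparison with the largest changes and for the member of each class with the highest level per kilobase of exon. Of the other lists, up to 4 called genes each, those with the largest genotype differences, could be named. Promoters came from RefSeq (GRCm38.p6). The result of 1 gene of these lists is not reported here.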

Additional observations from a re-analysis of the deposited data

Results flagged for a closer look

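In 13 of 165 combinations of gene and group, 1 library lay apart from the others of its group by a gap test, which chance alone flags in about 1 of 20 groups. WT non-foamy replicate 3, the shallowest library, held 6 of them: Atp6v0a1 was low at 33.7 CPM, and Atp6v0b (335 CPM), Atp6v0d2 (194 CPM), Atp6v0e (274 CPM), Atp6v1f (251 CPM) and Atp6v1h (174 CPM) were high. In the other WT non-foamy libraries, Hexa was high in replicate 2 (598 CPM) and Ppt1 in replicate 1 (104 CPM). WT foamy replicate 1 was low for Atp6v1c1 (356 CPM) and Ppt1 (98.8 CPM) and high for Manba (118 CPM). Atp6ap1 was high in Trem2-/- foamy replicate 2 (264 CPM), and Gm2a in Trem2-/- foamy replicate 4 (847 CPM).

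The cholesterol response differed between genotypes, by the interaction test of edgeR, for Atp6v0d2 (-0.73), Psap (-0.57), Clcn7 (-0.42), Atp6v1b2 (-0.36) and Hexa (-0.32), given as the Trem2-/- response minus the WT response on the log2 scale.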

How the results depend on the processing

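No called value changed direction under any alternative. The genotype counts in both directions together stayed within 1.5 times the reported number, but with total counts alone the higher genes with cholesterol went from 31 to 20 and the lower genes without it from 1 to 3. With the threshold kept at 0.05, 30 of the 41 calls without cholesterol and 21 of the 33 with it were kept under all alternatives, and at 0.01 the fit gave 37 and 26. The WT response gave 6 called genes, 13 with DESeq2, 1 at an adjusted p under 0.01 and 1 when only the groups compared were fitted. Leaving out 1 library gave 1 to 8, with 1 without WT non-foamy replicate 1 or WT foamy replicate 2, 2 without WT non-foamy replicate 4 and 3 without WT foamy replicate 1. The difference between responses gave 5 called genes, 10 with DESeq2, 11 with no filter on low counts and 1 at an adjusted p under 0.01. Leaving out 1 library gave 2 to 6, with 2 without WT foamy replicate 2 or Trem2-/- non-foamy replicate 2, and 3 without WT non-foamy replicate 1, Trem2-/- non-foamy replicate 1 or 3, or Trem2-/- foamy replicate 1. The replicate block gave 3 for this difference, 4 for the WT response, 0 for the Trem2-/- response, 40 higher genes and 1 lower gene between genotypes in media alone, and 29 and 3 in foamy cells. Same-numbered libraries deviated with r from -0.20 to 0.30, over 0.1 in 3 of 21 pairs. With 3 or 4 libraries in a group, this cannot settle whether equal numbers mark a pairing. The causes were not tested. The Trem2-/- cells were grown from single clones, and how many of them these libraries came from was not stated. The groups hold 3 or 4 libraries, and the lowest-count genes, Acp5, Ids and Sgsh, had as few as 70, 104 and 117 counts in a library.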
